A study of Mus musculus with 80 samples.

Results

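The genes described here are the MHC class I peptide loading machinery of the mouse. They were chosen by symbol: the rows for B2m, Tap1, Tap2, Tapbp, Tapbpl, Psmb8, Psmb9, Psmb10, Erap1 and Nlrc5 were taken from both gene tables. All 10 were found, 10 of the 41388 genes in the table of ages and 10 of the 40481 genes in the table of genotypes, and all 10 passed the filter on low values in every comparison. MHC class I molecules show short peptides from inside the cell to cytotoxic T cells and natural killer cells. The immunoproteasome, whose catalytic subunits are Psmb8, Psmb9 and Psmb10, cuts proteins into peptides. The Tap1 and Tap2 transporter moves these peptides into the endoplasmic reticulum. There the aminopeptidase Erap1 trims them, and tapasin (Tapbp) and the tapasin-related editor Tapbpl help load them onto a heavy chain paired with B2m, the invariant light chain. Nlrc5 is the transcriptional coactivator of class I genes, and both type I and type II interferon are known to induce much of the set.

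RNA was sequenced from hematopoietic stem cells (HSC), which renew themselves and give rise to all blood lineages, and from hematopoietic progenitor cells (HPC), their more limited descendants. All mice were of the B6 background, and the labels name no organ and no surface marker by which the cells were sorted. The age series held HSC at E14.5 (n = 3), E16.5 (n = 4), E18.5 (n = 3), P0 (n = 4), P7 (n = 4), P14 (n = 4) and 8 weeks (n = 4), and HPC at E16.5 (n = 3), P0 (n = 4), P7 (n = 4), P14 (n = 5) and 8 weeks (n = 4). E counts days of embryonic development and P days after birth, the embryonic ages are called E14, E16 and E18 here, and 8 weeks is called adult. The genotype series held P0 HSC that were Ifnar -/- (n = 4, labelled Ifnar ko) or wild type (n = 5), and P0 HPC that were Ifnar -/- (n = 4) or wild type (n = 4). It also held P14 HPC of 4 genotypes, namely Ifnar -/-, Flt3 ITD/+ (n = 5), Ifnar +/-, Flt3 ITD/+ (n = 4), Ifnar -/-, Flt3 +/+ (n = 4) and Ifnar +/-, Flt3 +/+ (n = 4). All P14 controls of the genotype series thus carried only a single working Ifnar allele, and every animal with the ITD kept a normal Flt3 allele. Ifnar is the receptor of type I interferon, and the labels do not say which of its subunits was deleted. Flt3 ITD is an internal tandem duplication that activates the receptor tyrosine kinase Flt3 and is common in acute myeloid leukemia. Nothing in the labels says whether libraries of a group came from separate animals, so p-values measure the spread between these libraries, which may be technical.

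Levels are given as RPKM, which divide reads by the exon length of the gene and the total of the library, so that genes of different length can be compared. They were deposited as RPKM for HSC of the age series, and were computed from the deposited counts for all other libraries. Differences are log2 fold changes with their standard errors, and a call means an adjusted p under 0.05 over all genes tested, by limma for HSC ages and for HSC against HPC, and by the quasi-likelihood test of edgeR elsewhere. Fold changes from limma are on the log2(RPKM + 0.5) scale, which understates the change of low genes such as Nlrc5. In bulk RNA, fewer cells that carry a transcript and less of it per cell cannot be told apart. Libraries held 6.95 to 24.034 M reads assigned to genes (M, megareads) in HSC ages, 7.911 to 25.382 M in HPC ages, 37.039 to 46.303 M in P0 HSC genotypes, 11.683 to 14.72 M in P0 HPC genotypes and 58.4 to 92.1 M in P14 genotypes.

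Some libraries stood apart. P14 Ifnar +/-, Flt3 +/+ libraries 1, 3 and 4 had a correlation between gene length and level of -0.144, -0.211 and -0.104, against 0.0239 in library 2 of that group. P14 Ifnar -/-, Flt3 ITD/+ library 5 had -0.105 and adult HPC library 1 had 0.102, and these were left out only singly. HPC P14 libraries 1 and 2 of the age series had -0.109 and -0.113. Within HPC ages, results that rest on P14 libraries 1 and 2 are given with and without them. The same holds within P14 genotypes for Ifnar +/-, Flt3 +/+ libraries 1, 3 and 4. HSC against HPC at P14 was not fitted without the HPC pair. The letter prefix of the column codes followed age: HSC at E14, E16 and E18 shared a prefix, as did HSC at P7 and P14, and HSC at P0 and adult, while each HPC age had its own. What the prefix stands for is not stated, and any effect that goes with it cannot be told apart from age across prefixes. Reads of Y-linked genes passed 1 CPM (counts scaled by library total) in 0 of 4 adult HSC libraries and in 4 of 4 at both E16 and P0, so in adult HSC against either of these ages sex and age cannot be told apart. They passed it in 2 of 3 HSC libraries at E18 and 2 of 4 at P14, and in 4 of 4 Ifnar ko and 2 of 4 wild type P0 HPC libraries. In HPC of the age series they passed it in 4 of 4 adult libraries, the lowest at 1.07 CPM, and in 3 of 3 at E16. Reads of Ifnar1 were 58.1 to 70.2 CPM in Ifnar ko and 51.1 to 74.5 CPM in wild type P0 HSC, and 78.3 to 87.9 CPM in Ifnar ko and 53.8 to 79.3 CPM in wild type P0 HPC. Ifnar2 had 33.5 to 42.2 CPM in Ifnar ko and 22.6 to 43.3 CPM in wild type P0 HSC. A count over a whole gene does not check a deletion within it. The interferon-induced ubiquitin-like gene Isg15 had 3.39 to 5.62 CPM in Ifnar ko and 34.9 to 129 CPM in wild type P0 HSC, and 0.856 to 3.23 CPM in Ifnar ko and 46.3 to 117 CPM in wild type P0 HPC, without overlap. Flt3 had 433 to 547 CPM in Ifnar +/-, Flt3 ITD/+ and 104 to 1090.5 CPM in Ifnar +/-, Flt3 +/+ P14 HPC. Kit, a receptor of stem and progenitor cells, ranged from 79.3 to 1276 CPM among the 4 Ifnar +/-, Flt3 +/+ libraries.

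Promoters in the RefSeq table (build GRCm38.p6, 250 bases before to 50 after the start it gives for each gene) were matched for 7 of the 10 genes. They are shown for genes with different calls in what follows. B2m and Tap1 were called lower in both Ifnar -/- cell types at P0, Psmb8 in HPC but not in HSC, and Erap1 in neither. The Psmb8 libraries were also separate by genotype in HSC, and its change was not called as different between the cell types. The motifs searched on both strands were the interferon-stimulated response element (ISRE, GAAA and GAAA with any 2 bases between), the interferon gamma-activated site (GAS, TTCNNNGAA), the cAMP response element core (TGACG) and the CCAAT box (CCAAT). Capitals mark an ISRE or a GAS. The windows are chr2:122147437-122147736 (plus strand) for B2m, chr17:34187306-34187605 (plus strand) for Tap1, chr17:34197945-34198244 (plus strand) for Psmb8 and chr13:74639603-74639902 (plus strand) for Erap1.
B2m: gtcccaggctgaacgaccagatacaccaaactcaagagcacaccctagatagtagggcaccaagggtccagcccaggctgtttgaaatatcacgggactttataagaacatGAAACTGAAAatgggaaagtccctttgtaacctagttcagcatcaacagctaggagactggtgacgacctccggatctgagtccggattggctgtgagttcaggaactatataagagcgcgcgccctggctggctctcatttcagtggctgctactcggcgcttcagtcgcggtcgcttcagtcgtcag
Tap1: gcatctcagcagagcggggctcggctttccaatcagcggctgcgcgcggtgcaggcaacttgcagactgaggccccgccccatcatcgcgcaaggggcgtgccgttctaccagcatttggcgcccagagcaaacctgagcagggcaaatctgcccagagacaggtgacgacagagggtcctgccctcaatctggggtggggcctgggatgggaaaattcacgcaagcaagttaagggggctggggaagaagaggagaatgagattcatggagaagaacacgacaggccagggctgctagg
Psmb8: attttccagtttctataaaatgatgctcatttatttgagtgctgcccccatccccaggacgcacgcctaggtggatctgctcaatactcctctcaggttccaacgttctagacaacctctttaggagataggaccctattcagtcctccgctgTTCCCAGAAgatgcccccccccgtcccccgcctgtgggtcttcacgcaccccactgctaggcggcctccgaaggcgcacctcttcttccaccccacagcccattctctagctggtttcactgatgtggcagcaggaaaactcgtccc
Erap1: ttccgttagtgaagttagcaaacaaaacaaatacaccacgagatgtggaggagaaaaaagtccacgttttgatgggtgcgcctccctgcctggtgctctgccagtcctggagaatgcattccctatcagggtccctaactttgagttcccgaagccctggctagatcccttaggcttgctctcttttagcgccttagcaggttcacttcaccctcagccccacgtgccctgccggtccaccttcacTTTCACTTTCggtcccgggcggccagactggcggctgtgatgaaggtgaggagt
B2m held the ISRE GAAACTGAAA beginning at -139 from the start site, and also a cAMP response element core at -78, a second one on the other strand at 45 bases after the start, and a CCAAT box on the other strand at -53. Psmb8 held the GAS TTCCCAGAA at -97. Erap1 held an ISRE on the other strand, read here as TTTCACTTTC, at -4. In the GENCODE M21 annotation Psmb8 begins at chr17:34197721 and Erap1 at chr13:74639568, so both windows lie inside the annotated gene. Positions in these 2 windows hold only for the RefSeq start. The Tap1 window held neither an ISRE nor a GAS, but a cAMP response element core at -86 and a CCAAT box at -222. The matched windows of Psmb9, Psmb10 and Tapbp, not shown, held neither an ISRE nor a GAS. No matched motif overlapped another. Tap1 and Psmb9 start head to head, and their windows share 275 bases. Of the 32851 promoters of this length, 3.44% held the ISRE, 8.3% the GAS, 20.8% the cAMP response element core and 37.4% the CCAAT box. A match of letters is a description and not a measured binding site.

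In HSC, the loading machinery was higher in adults than at E16 for nearly the whole set. The light chain B2m, both transporter chains, both tapasin family editors, all 3 immunoproteasome subunits and the coactivator Nlrc5 rose, and the trimming enzyme Erap1 was the only member that was not called. The count was 9 of 10 called higher, against 12.3% of all 13356 genes tested. The median log2 fold change of the 10 genes was 1.24, against 0.02 over all genes tested. Sizes went from 0.69 for Tapbpl to 1.74 for Nlrc5 among the called genes.

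B2m had 8164, 9499.6, 8872 and 8240.2 RPKM in adult HSC, against 2944, 2730.1, 2339.8 and 2709 RPKM in E16 HSC. The lowest adult library lay far above the highest E16 library, and B2m rose by 1.70 ± 0.10 on the log2 scale (adjusted p = 6.09e-13). Tap1, the peptide transporter's first chain, had 37.8, 41.9, 36.9 and 45.6 RPKM in adult HSC, against 12.2, 10.9, 12.4 and 15.7 RPKM in E16 HSC, a log2 fold change of 1.64 ± 0.17 (adjusted p = 2.24e-08). Its partner Tap2 had 33.8, 38, 40.1 and 58.7 RPKM in adult HSC, against 10.4, 14.3, 15.9 and 15.8 RPKM in E16 HSC, a log2 fold change of 1.55 ± 0.20 (adjusted p = 8.45e-07). The groups did not overlap for either chain.

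Tapbp, which bridges Tap to the empty heavy chain, had 130.5, 140.01, 118 and 149 RPKM in adult HSC, against 82.2, 80.2, 79.1 and 72.4 RPKM in E16 HSC (log2 fold change 0.77 ± 0.12, adjusted p = 1.73e-05). Tapbpl, an editor that works outside the Tap complex, had 26.7, 37, 33.8 and 38 RPKM in adult HSC, against 18.2, 21.8, 22.5 and 20.2 RPKM in E16 HSC (0.69 ± 0.19, adjusted p = 0.00853). Neither gene overlapped between the ages. Erap1, which trims peptides to class I length, had 25.7, 40.1, 49.95 and 49.4 RPKM in adult HSC, against 32.5, 40.6, 38.4 and 35.7 RPKM in E16 HSC. The Erap1 groups overlapped, with the lowest library of both ages among the adults, and the log2 difference was 0.13 ± 0.22 (adjusted p = 0.736).

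Psmb8 had 178, 162, 129.5 and 156 RPKM in adult HSC, against 78.4, 53.4, 61.7 and 69.4 RPKM in E16 HSC, a log2 fold change of 1.25 ± 0.12 (adjusted p = 8.42e-09). Psmb9 had 91.8, 84.9, 73.4 and 80.3 RPKM in adult HSC, against 33.2, 34.3, 36.7 and 34.8 RPKM in E16 HSC, a log2 fold change of 1.24 ± 0.12 (adjusted p = 7.28e-09). Psmb10 had 320.1, 299, 232 and 263 RPKM in adult HSC, against 191, 143, 166 and 167 RPKM in E16 HSC (0.74 ± 0.11, adjusted p = 8.8e-06). None of the subunits overlapped between the ages, and Psmb10 was the most abundant of them per length at both. Nlrc5 was by far the lowest member, at 5.56, 3.52, 4.7 and 4.47 RPKM in adult HSC, against 0.525, 0.695, 1.66 and 1.45 RPKM in E16 HSC. It did not overlap either, and rose by 1.74 ± 0.32 on the log2 scale (adjusted p = 0.000154).

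**Figure D1:**
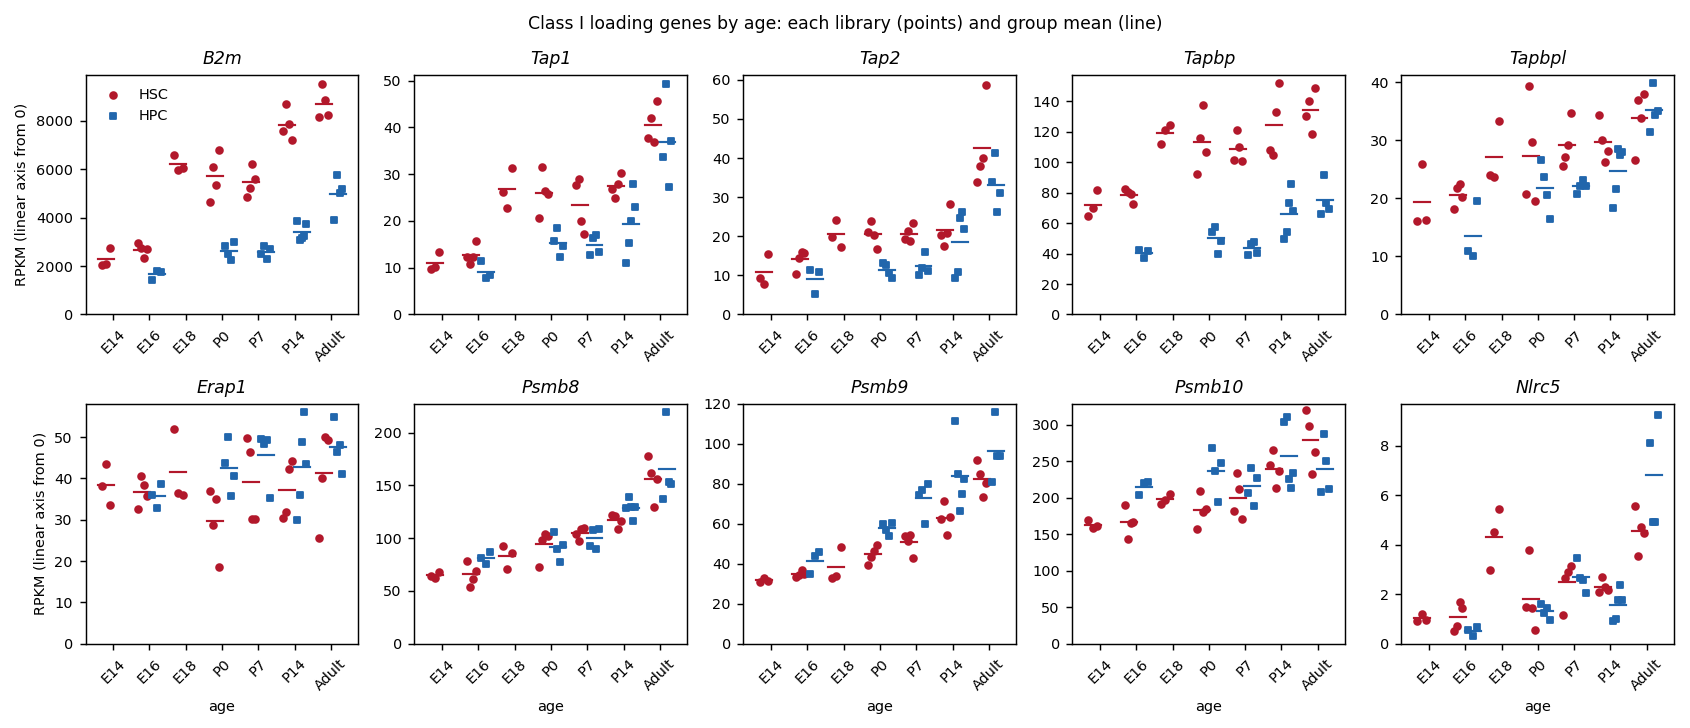
Level of each of the 10 genes in RPKM (linear axis from 0) against age, with HSC as circles and HPC as squares; points are libraries and lines are group means. Adult HSC lie above E16 HSC without overlap in every panel but Erap1, and HSC lie above HPC at every shared age for B2m.

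The genes that work around the members were counted by lists. Of 7 class I heavy chain genes, which bind the peptide itself, 7 rose in adult HSC and 0 fell. The nonclassical heavy chain H2-T23 rose by 2.01, H2-Q6 by 6.74 and H2-Q7 by 5.22. H2 heavy chain genes have near-identical copies, so how reads were split among them is uncertain. The 3 constitutive catalytic subunits, which the immunosubunits replace, went the other way: 0 rose and 2 fell, Psmb5 by 0.54 ± 0.13 and Psmb7 by 0.43 ± 0.08. Of 11 other subunits of the proteasome core, 0 rose and 4 fell, among them Psma4, which fell by 0.41 ± 0.09. Of 3 PA28 activator genes, whose product opens the core for peptide release, Psme1 rose by 0.34 ± 0.09 and the others were not called. Of 5 proteasome assembly genes limma called 0, and 2 had an unadjusted p under 0.05. Of 6 ER folding partners, 2 rose, the chaperone Hspa5 by 0.50 ± 0.13 and the glycoprotein sensor Uggt1 by 0.45 ± 0.16.

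The upstream genes were mixed. Of 8 transcription partners of Nlrc5, the RFX, NF-Y and CREB factors that sit with it on class I promoters, 0 rose and 1 fell, Nfyb by 0.54 ± 0.17. Of 9 tested regulators of the interferon pathway, 5 rose and 2 fell. Among them, Irf1 rose by 1.23 ± 0.13, and Ifngr2, a chain of the interferon gamma receptor, fell by 1.07 ± 0.20. Of 10 type I interferon effectors, 5 rose and 0 fell, with Ifi44 at 2.02, Oasl2 at 1.25 and Rtp4 at 1.10.

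Markers of other cells moved with the same comparison. The summed level of 7 markers of dendritic and antigen presenting cells was 765 to 1105 CPM in adult HSC and 135 to 234 CPM in E16 HSC, and 5 of 6 tested were called higher and 1 lower. This list includes Flt3, which is also in the list of hematopoietic cell genes used below. For 8 macrophage markers the sums were 96.5 to 161 CPM in adult HSC and 61.6 to 92.5 CPM in E16 HSC, with 5 called higher and 1 lower. For 6 T and NK cell markers they were 72.4 to 90.8 CPM in adult HSC and 18.2 to 42.2 CPM in E16 HSC, and the defining T cell genes Cd3e, Cd3g and Cd8a were at 0 in adult HSC. For 5 B cell markers they were 106 to 137 CPM in adult HSC and 159 to 187 CPM in E16 HSC, with Ms4a1 and Pax5 at 0 in adult HSC. Erythroid sums were 17.2 to 32.2 CPM in adult HSC and 38.3 to 123 CPM in E16 HSC, with 4 of 6 markers called. Endothelial sums were 120 to 233 CPM in adult HSC and 282 to 311 CPM in E16 HSC, with 3 of 4 tested called. Hepatocyte sums were 16.6 to 27.7 CPM in adult HSC and 7.24 to 9.765 CPM in E16 HSC, with 1 of 2 tested called. The part of these lists in the class I result was not tested.

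Between neighbouring ages, the genes of the set did not all change in the same interval. From E14 to E16, limma called 0 members (0.0524% of all genes were called in either direction), 0 members had an unadjusted p under 0.05, and edgeR on the reads recovered from the RPKM called 0. In E18 against E16 HSC, 4 members rose against 2.42% of all genes. B2m rose by 1.17 ± 0.11, at 6572, 5968 and 6052 RPKM in E18 HSC (adjusted p = 5.32e-08). Tap1 rose by 0.99 ± 0.18, at 26.1, 22.8 and 31.3 RPKM in E18 HSC (adjusted p = 0.000989). Nlrc5 rose by 1.61 ± 0.34, at 2.99, 4.51 and 5.45 RPKM in E18 HSC (adjusted p = 0.00499). Every E18 library lay above every E16 library in these genes and in the fourth, Tapbp, which rose by 0.56 ± 0.13 (adjusted p = 0.0092). Tap2, Tapbpl and Psmb10 were separate in the same direction but not called. Their lowest E18 libraries had 17.4, 23.7 and 192.1 RPKM, and their highest E16 libraries 15.9, 22.5 and 190.6 RPKM. By limma, 6 members had an unadjusted p under 0.05. The immunosubunits were not called in this interval: Psmb8 differed by 0.30 ± 0.13, Psmb9 by 0.08 ± 0.13 and Psmb10 by 0.21 ± 0.12. In the same comparison, 8 of the 10 interferon effectors rose, with a list median of 2.31, against a members' median of 0.41 and -0.01 over all genes.

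In adult against E18 HSC, 6 members rose against 8.82% of all genes. They were Psmb9 (1.16 ± 0.13, adjusted p = 1.42e-07), Tap2 (1.06 ± 0.21, adjusted p = 0.000691), Psmb8 (0.95 ± 0.13, adjusted p = 5.31e-06), Tap1 (0.64 ± 0.18), B2m (0.53 ± 0.11) and Psmb10 (0.53 ± 0.12). Tap1 was lost from the calls without E18 library 2 (adjusted p = 0.0966). Nlrc5 differed by 0.13 ± 0.34 (adjusted p = 0.854) and its libraries overlapped. The median of the members was 0.53. The interferon effectors did not share the direction: 0 of 10 rose and 6 fell from their E18 level, with a list median of -0.91. The antigen presenting marker sums were 765 to 1105 CPM in adult HSC and 199 to 249 CPM in E18 HSC, with 5 of 6 tested markers called higher and 1 lower. The T and NK cell sums were 72.4 to 90.8 CPM in adult HSC and 15.7 to 24.8 CPM in E18 HSC, and 5 of 8 macrophage markers were called higher. The part of these markers was not tested. Both comparisons share the E18 libraries, so they are not independent of each other.

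After birth, 0 to 4 members were called in each successive interval. In P0 against E18 HSC, 1 member was called lower, Nlrc5, against 1.81% of all genes, with 1.49, 3.78, 1.46 and 0.554 RPKM at P0. It fell by 1.18 ± 0.34 (adjusted p = 0.0444), a call that was lost in 11 of the settings tried, with an adjusted p of up to 0.212, among them leaving out E18 library 2 or 3 or P0 library 1 or 3. In P7 against P0 HSC, limma called 0 members, against 5.94% of all genes in either direction, 0 had an unadjusted p under 0.05, and edgeR on recovered reads called 0. In P14 against P7 HSC, B2m alone was called, at 7568, 8682, 7866 and 7191 RPKM in P14 HSC, against 4845, 5212, 6208 and 5603 RPKM in P7 HSC (0.51 ± 0.10, adjusted p = 0.00675; 0.629% of all genes were called higher). In adult against P14 HSC, 4 members rose against 2.25% of all genes: Tap2 by 0.95 ± 0.20 (adjusted p = 0.00262), Tap1 by 0.56 ± 0.17, Psmb8 by 0.41 ± 0.12 and Psmb9 by 0.40 ± 0.12. Tap1, Psmb8 and Psmb9 were each lost in 10 of the settings tried, including the omission of most single libraries of either age, with adjusted p of up to 0.143, 0.123 and 0.166. The antigen presenting marker sums were 765 to 1105 CPM in adult HSC and 299.8 to 413 CPM in P14 HSC, with 5 of 6 called higher, and their part was not tested.

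Adult and P0 HSC share a column prefix, so their difference was added after the data were seen, although sex and age cannot be told apart in it. In adult against P0 HSC, 7 members were called higher, against 10.6% of all genes. Nlrc5 had a log2 fold change of 1.31, Tap2 of 1.04, Psmb9 of 0.91, Psmb8 of 0.76, Tap1 of 0.67, B2m of 0.64 and Psmb10 of 0.63. Tapbp (0.29), Tapbpl (0.38) and Erap1 (0.49) were not called. The antigen presenting marker sums were 765 to 1105 CPM in adult HSC and 212 to 471 CPM in P0 HSC, without overlap, and their part was not tested. Within the prefix shared by E14, E16 and E18, the E18 values above apply.

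The balance between the immunosubunits and the subunits they replace moved with age. The share of Psmb8 in the sum of Psmb8 and Psmb5, per length, was 72.8% ± 3.74 in adult HSC and 43.7% ± 4.22 in E16 HSC (mean ± SD, n = 4 each). The share of Psmb9 in the sum with Psmb6 was 25.1% ± 1.21 in adult HSC and 11.4% ± 0.498 in E16 HSC, and that of Psmb10 in the sum with Psmb7 was 69.1% ± 2.4 in adult HSC and 49.8% ± 2.56 in E16 HSC. The groups did not overlap in any of the 3 pairs, and each exact two-sided permutation test gave p = 0.0286, the smallest that 4 against 4 libraries allow (adjusted p = 0.033 over 15 share tests). At E18 the shares were 52.9% ± 5.09, 13.9% ± 1.77 and 56.3% ± 1.2 for Psmb8, Psmb9 and Psmb10 (n = 3). Against E16 the last 2 were higher without overlap (exact permutation p = 0.0286, adjusted p = 0.033), while Psmb8 overlapped (exact permutation p = 0.0857, adjusted p = 0.0918). The share of Psmb9 stayed below that of the other subunits in every group, with its partner Psmb6 more abundant per length than it. Such rankings between genes depend on the exon lengths used, 2736 bases for Psmb8, 3659 for Psmb9 and 1270 for Psmb10. By reads, adult HSC libraries held 6789 to 10224 for Psmb8, 4696 to 7166 for Psmb9 and 5681 to 8748 for Psmb10. In HPC, the shares were 72.6% ± 2.19, 24.4% ± 2.17 and 64.5% ± 1.95 in adults and 50.1% ± 1.2, 9.08% ± 1.18 and 50.3% ± 1.25 at E16, in the same order of subunits (n = 4 and 3). No pair overlapped there either (exact permutation p = 0.0286 each, the smallest possible, adjusted p = 0.033).

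**Figure D2:**
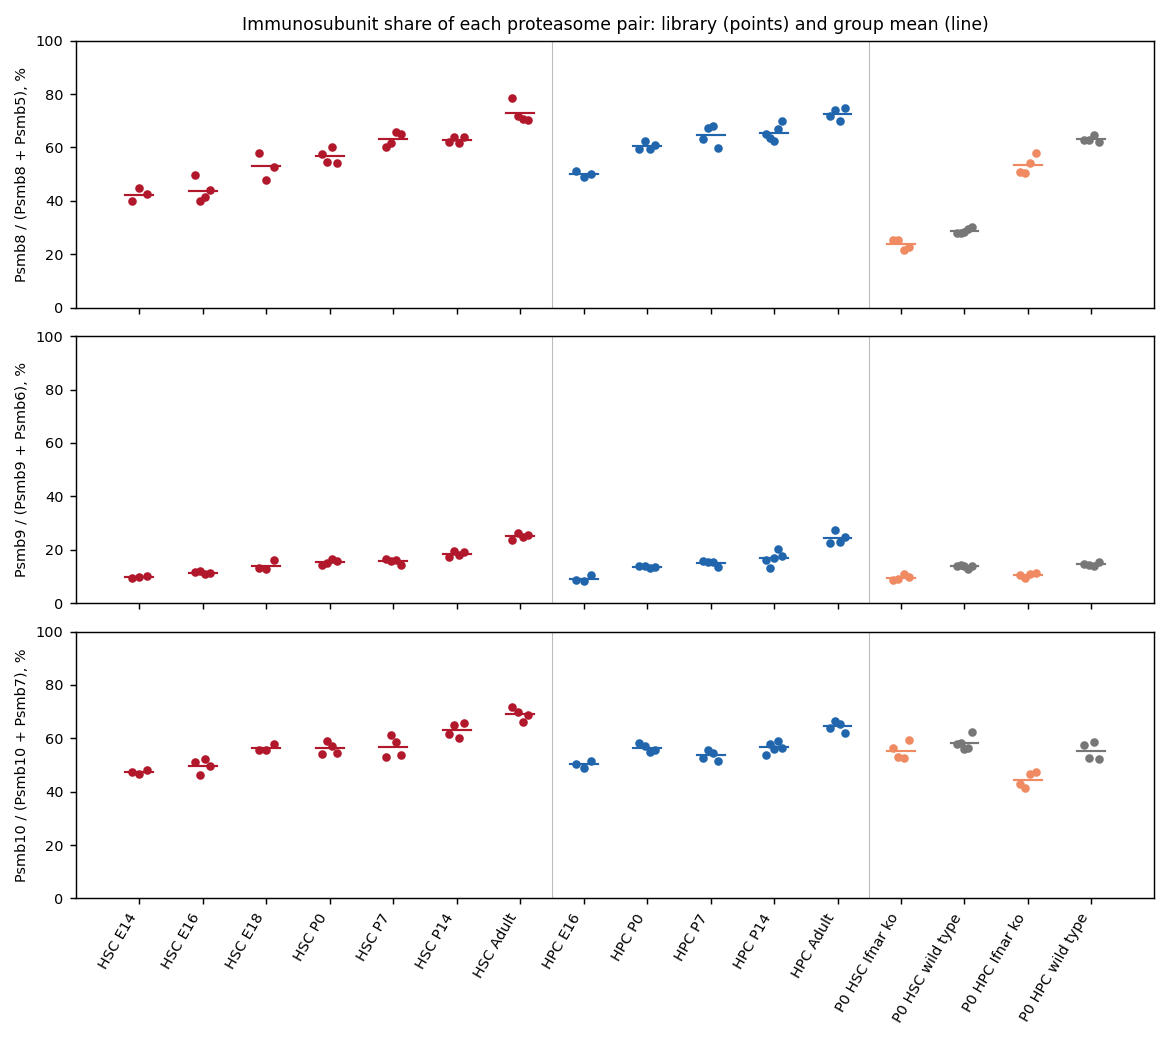
Share of each immunosubunit in the sum with its constitutive counterpart, in percent of values per length (axis 0 to 100), for every library (points) with group means (lines), over HSC ages, HPC ages and the P0 genotypes. Adult shares lie above E16 shares in both cell types, and the Psmb8 and Psmb9 shares lie lower in Ifnar ko than in wild type.

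In HPC, the same comparison of adult with E16 called 8 of the 10 genes higher, against 14.9% of the 14754 genes tested. B2m had 3899.97, 5752, 5016 and 5161 RPKM in adult HPC, against 1430.4, 1788 and 1747 RPKM in E16 HPC (1.44 ± 0.17, adjusted p = 2.18e-06). Tap1 had 33.6, 49.2, 27.2 and 37.1 RPKM in adult HPC, against 11.4, 7.86 and 8.34 RPKM in E16 HPC (1.86 ± 0.23, adjusted p = 4.76e-06). Nlrc5 had 8.13, 4.93, 4.91 and 9.24 RPKM in adult HPC, against 0.557, 0.309 and 0.686 RPKM in E16 HPC (3.60 ± 0.32, adjusted p = 3.97e-08). These 3 genes did not overlap between the ages, and Nlrc5 had the largest fold change of the set. Tap2 rose by 1.73 ± 0.28, Tapbpl by 1.26 ± 0.19, Psmb9 by 1.07 ± 0.19, Psmb8 by 0.89 ± 0.17 and Tapbp by 0.75 ± 0.16. Psmb10 was not called, with 208, 288, 249.8 and 212 RPKM in adult HPC and 204, 219.9 and 221 RPKM in E16 HPC, overlapping groups and a difference of 0.02 ± 0.19. Erap1 differed by 0.27 ± 0.16 (adjusted p = 0.222).

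Around the members, 7 of 7 heavy chains and 9 of 10 interferon effectors rose in adult HPC. Of the 3 constitutive catalytic subunits 2 fell, and of 11 other core subunits 6 fell. The Psmb10 share was thus higher in adults without a call for the Psmb10 level itself. Marker sums were 894 to 1635 CPM in adult HPC and 489 to 804 CPM in E16 HPC for antigen presenting cells, and 432 to 537 CPM in adult HPC and 79.8 to 94.2 CPM in E16 HPC for T and NK cells. The T cell genes Cd3e and Cd8a were at 0 in HPC of both ages. Their part in the result was not tested.

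By interval, 3 members rose in P0 against E16 HPC, against 2.6% of all genes: Nlrc5 by 1.39 ± 0.30 (adjusted p = 0.0128), Tapbpl by 0.71 ± 0.19 and B2m by 0.67 ± 0.17. Leaving out single libraries left 1 to 2 members called, and Nlrc5 was lost only without E16 library 2 (adjusted p = 0.0951). In P7 against P0 HPC edgeR called 0 members, against 1.48% of all genes in either direction, with 1 member at an unadjusted p under 0.05, Nlrc5, which DESeq2 called. In P14 against P7 HPC 3 members rose, against 4.83% of all genes: Tapbp by 0.72 ± 0.14, B2m by 0.53 ± 0.15 and Psmb8 by 0.50 ± 0.15. Without P14 libraries 1 and 2 the values were 0.83, 0.41 and 0.35, with adjusted p of 0.00139, 0.0503 and 0.094. Leaving out single libraries left 1 to 5 members called in that interval. In adult against P14 HPC 3 members rose, against 14.9% of all genes: Nlrc5 by 1.90 ± 0.24 (adjusted p = 1.13e-05), Tap1 by 0.71 ± 0.19 and Tap2 by 0.64 ± 0.23. Without P14 libraries 1 and 2 they were 1.63, 0.49 and 0.30, with adjusted p of 0.000179, 0.071 and 0.324. Only Nlrc5 was still called there, and Tap1 was also lost without adult library 2 (adjusted p = 0.0502). The Tap2 call was lost in 12 of the settings tried, with an adjusted p of up to 0.767, among them the omission of adult library 1, 2 or 4 or of P14 library 1, 2 or 5.

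The stem and progenitor cells of the age series differed in B2m and Tapbp at every shared age. HSC and HPC shared no prefix of the column codes, so any effect of it cannot be told apart from cell type. B2m was higher in HSC by 0.62 at E16, 1.02 at P0, 1.03 at P7, 0.99 at P14 and 0.85 in adults, with standard errors of 0.12 to 0.14. Tapbp was higher in HSC by 0.86, 1.08, 1.26, 0.71 and 0.87 at the same ages, with standard errors of 0.13 to 0.15. In adults B2m had 8694 ± 624 RPKM in HSC and 4957 ± 773 RPKM in HPC, and Tapbp had 134 ± 13 RPKM in HSC and 74.9 ± 11.7 RPKM in HPC (mean ± SD, n = 4 each). Both pairs of groups were separate. The wild type P0 cells of the genotype series did not show this order: B2m had 2656 ± 202 RPKM in HSC (n = 5) and 3165 ± 406 RPKM in HPC (n = 4), and Tapbp had 83.8 ± 4.01 RPKM in HSC and 90.7 ± 8.79 RPKM in HPC. Both genes overlapped between these groups, and the difference was not tested there. Tap1 and Tap2 were higher in HSC at P0 (0.66 and 0.74) and at P7 (0.57 and 0.69), and were not called at E16, P14 or in adults. Without HPC P7 library 1 the P7 calls of Tap1 and Tap2 were lost (adjusted p = 0.0622 and 0.0618), and Tap1 was also lost without HSC P7 library 1 or 2 (adjusted p = 0.0702 and 0.0772).

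The calls lower in HSC were of immunosubunits and Erap1, each at some of the 5 ages and none in adults. Psmb9 was lower in HSC at P0 (-0.46), P7 (-0.57) and P14 (-0.61), Psmb10 at E16 (-0.46) and P0 (-0.46), Psmb8 at E16 (-0.40) and P14 (-0.35), and Erap1 at P0 (-0.63), with standard errors of 0.13 to 0.20. The Erap1 call was lost without HSC P0 library 4 (adjusted p = 0.105). Counted by age, 3 members were called higher and 2 lower at E16, where 12.7% and 10.5% of the 14278 genes tested were called higher and lower in HSC. At P0 it was 4 and 3, against 20.4% and 18.3%. At P7 it was 4 and 1, against 20% and 21.3%. At P14 it was 2 and 2, against 17.7% and 19.5%, and in adults 2 and 0, against 13.1% and 15.4%. The T and NK cell marker sums were lower in HSC at every shared age without overlap, at 72.4 to 90.8 CPM in adult HSC and 432 to 537 CPM in adult HPC, and their part was not tested. Cd3e and Cd8a were at 0 in adult cells of both types. Counts of so few genes near such shares say little about the set as a whole. At E16 the calls of Psmb8, Psmb10 and Tapbpl (0.57) were each lost in 5 or more of the settings tried, with adjusted p of up to 0.168, 0.115 and 0.225, and at P14 that of Psmb8 in 7, with adjusted p of up to 0.386. Those settings for Psmb8 at P14 included the omission of HPC P14 library 1 or 2.

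The age difference was set against that of the other cell type directly. For Psmb10, adult minus E16 was larger in HSC than in HPC by 0.70 ± 0.21 (adjusted p = 0.0468), and it was the only member called, against 1.95% of all genes. This call lay close to the threshold and was lost in 14 of the settings tried, with an adjusted p of up to 0.13. For Nlrc5 the difference was -1.01 ± 0.42 (adjusted p = 0.18), on a scale that understates low genes.

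In newborn HSC without Ifnar, 4 of the 10 genes fell, against 0.937% of the 16224 genes tested. B2m had 932, 1036, 764 and 841 RPKM in Ifnar ko HSC, against 2709, 2356, 2632, 2659.6 and 2922 RPKM in wild type HSC, and fell by 1.56 ± 0.14 on the log2 scale (adjusted p = 1.8e-05). Tap1 had 6.81, 5.86, 8.02 and 7.13 RPKM in Ifnar ko HSC, against 27.5, 24.8, 24.5, 22.2 and 23.6 RPKM in wild type HSC, and fell by 1.82 ± 0.11 (adjusted p = 5.31e-07). Nlrc5 had 0.235, 0.212, 0.589 and 0.397 RPKM in Ifnar ko HSC, against 2.27, 2.99, 3.31, 2.53 and 4.08 RPKM in wild type HSC, and fell by 3.10 ± 0.29 (adjusted p = 3.02e-05). All Ifnar ko libraries lay below all wild type libraries in these genes. Psmb9 had 18.2, 22.2, 22.6 and 19.98 RPKM in Ifnar ko HSC, against 32.4, 34, 28.9, 35 and 38 RPKM in wild type HSC, without overlap, and fell by 0.70 ± 0.13 (adjusted p = 0.015). Its call was lost without Ifnar ko library 1 or 4 (adjusted p = 0.0831 and 0.0544).

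The rest of the machinery in P0 HSC was not called. Psmb8 differed by -0.52 ± 0.14 (adjusted p = 0.169), with 27.8, 29.9, 24.4 and 30.6 RPKM in Ifnar ko HSC and 39.3, 36.1, 35.9, 47.3 and 42.9 RPKM in wild type HSC. Its libraries were separate although the difference missed the threshold. Tapbp differed by -0.35 ± 0.10 (adjusted p = 0.207), and its libraries were also separate, at 57.9 to 72.9 RPKM in Ifnar ko HSC and 79.8 to 90.5 RPKM in wild type HSC. Tap2 differed by -0.30 ± 0.13 (adjusted p = 0.524), Psmb10 by -0.16 ± 0.15, Erap1 by -0.06 ± 0.13 and Tapbpl by 0.07 ± 0.12. The median of the 10 genes was -0.43, against 0.00 over all genes tested. The shares of Psmb8 and Psmb9 were 23.8% ± 1.85 and 9.47% ± 1.01 in Ifnar ko HSC and 28.8% ± 1.01 and 13.7% ± 0.527 in wild type HSC, with no overlap (n = 4 and 5, exact permutation p = 0.00794 each, the smallest possible, adjusted p = 0.033). The Psmb10 share was 55.4% ± 3.23 in Ifnar ko HSC and 58.1% ± 2.59 in wild type HSC, which overlapped (exact permutation p = 0.206, adjusted p = 0.206).

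The heavy chains moved with B2m: 7 of 7 fell in Ifnar ko HSC, with H2-K1 at -2.15, H2-D1 at -2.02 and H2-Q7 at -5.87. All 10 interferon effectors fell, with a list median of -5.33, led by the receptor chaperone Rtp4 (-7.01), Ifi44 (-8.04) and the antiviral GTPase Mx1 (-7.89). Of 10 regulators 4 fell, among them Irf9 (-2.25), Irf7 (-4.66) and Stat2 (-1.04), the factors that act downstream of the receptor. Among 3 constitutive catalytic subunits and 11 other core subunits edgeR called 0 in either direction, with 0 in either list at an unadjusted p under 0.05. Macrophage marker sums were 109.6 to 137 CPM in Ifnar ko HSC and 63.1 to 135 CPM in wild type HSC, and those of antigen presenting cells were 405 to 645 CPM in Ifnar ko HSC and 209 to 413 CPM in wild type HSC. Of 8 macrophage markers 2 were called lower, and of 6 tested antigen presenting markers edgeR called 0, with 2 at an unadjusted p under 0.05. Neutrophil marker sums were 28.7 to 35.5 CPM in Ifnar ko HSC and 11.3 to 20.6 CPM in wild type HSC. The part of these markers in the result was not tested.

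**Figure D3:**
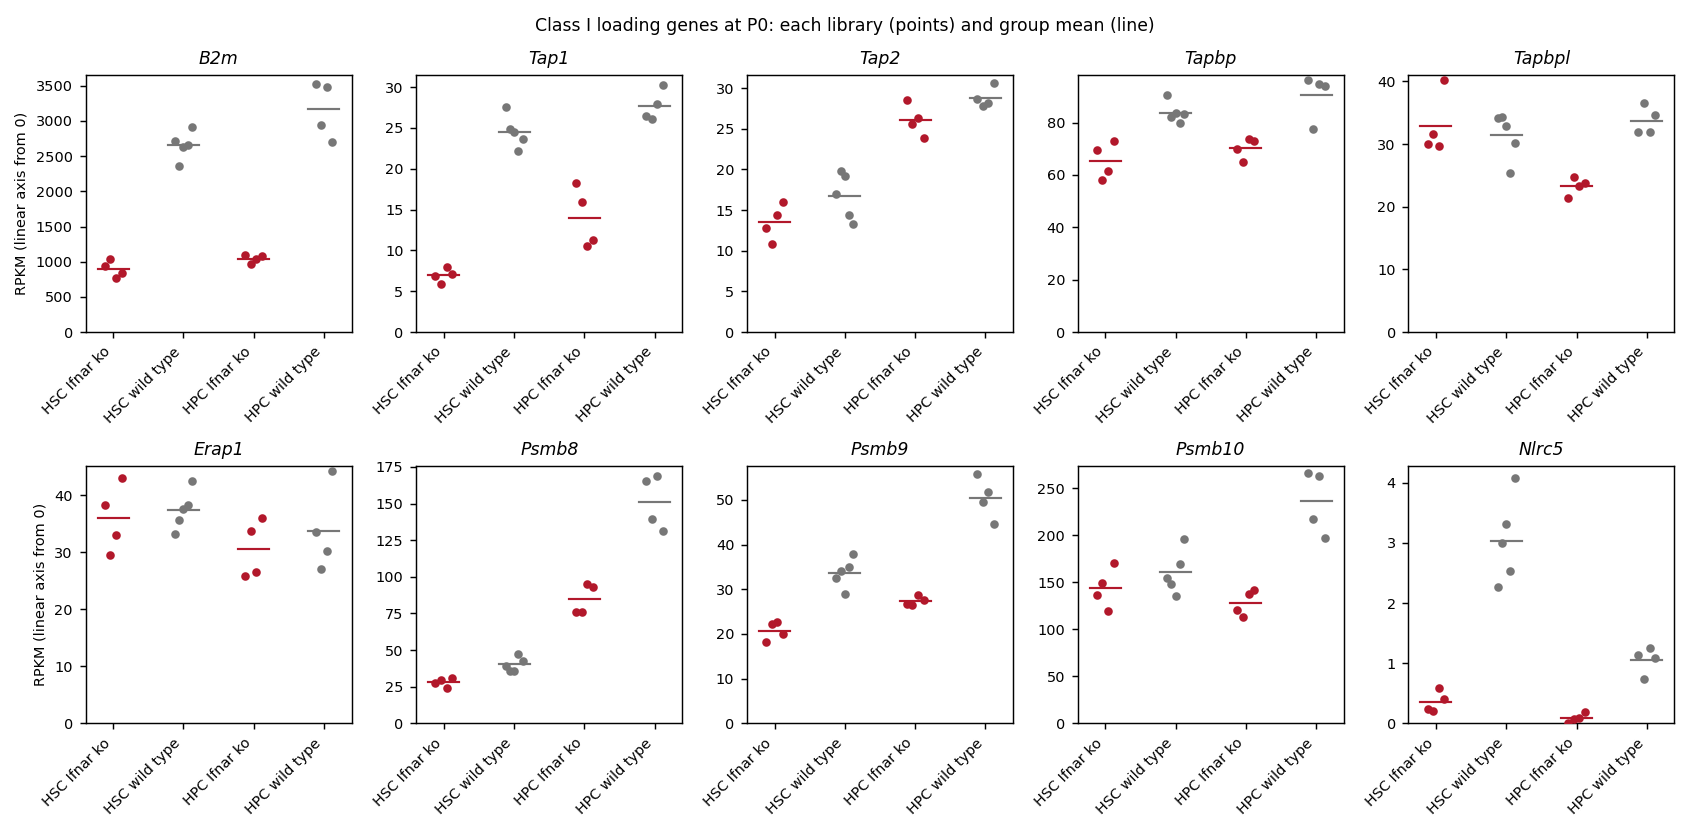
Level of each of the 10 genes in RPKM (linear axis from 0) in P0 HSC and HPC, Ifnar ko left of wild type; points are libraries and lines are group means. B2m, Tap1, Tapbp, Psmb8, Psmb9 and Nlrc5 are lower in every Ifnar ko library than in any wild type library of the same cell type.

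In newborn HPC without Ifnar, 8 of the 10 genes fell, against 5.58% of the 12988 genes tested. B2m had 1094, 967, 1031 and 1075 RPKM in Ifnar ko HPC, against 3522, 2949, 3488 and 2701 RPKM in wild type HPC, and fell by 1.67 ± 0.11 (adjusted p = 2.74e-07). Psmb9 had 26.8, 26.4, 28.8 and 27.7 RPKM in Ifnar ko HPC, against 55.7, 49.5, 51.8 and 44.6 RPKM in wild type HPC, and fell by 0.95 ± 0.11 (adjusted p = 7.7e-05). Nlrc5 had 0, 0.0716, 0.0894 and 0.191 RPKM in Ifnar ko HPC, against 1.14, 0.732, 1.25 and 1.09 RPKM in wild type HPC. The Nlrc5 values rest on 0 to 19 reads in Ifnar ko libraries and 72 to 130 reads in wild type libraries. In the library with 0 reads, a floor of 3 reads would be 0.0336 RPKM, and the fitted change of -3.62 ± 0.56 (adjusted p = 0.00104) depends on such low counts. Intervals and floors of this kind cover counting error only.

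Tap1 had 18.3, 15.9, 10.5 and 11.3 RPKM in Ifnar ko HPC, against 26.5, 26.1, 27.9 and 30.3 RPKM in wild type HPC (-1.05 ± 0.16, adjusted p = 0.00111). Psmb8 had 76.1, 76.2, 95.4 and 93.1 RPKM in Ifnar ko HPC, against 165, 139.6, 169 and 132 RPKM in wild type HPC (-0.90 ± 0.12, adjusted p = 0.000309). Psmb10 had 121, 113, 138 and 142 RPKM in Ifnar ko HPC, against 266, 218, 263 and 197 RPKM in wild type HPC (-0.95 ± 0.13, adjusted p = 0.000294). None of these overlapped between the genotypes. Tapbpl fell by 0.60 ± 0.12 (adjusted p = 0.00504) and Tapbp by 0.43 ± 0.10 (adjusted p = 0.0164). The Tapbp call was lost without wild type library 1 or 3 or Ifnar ko library 2 (adjusted p = 0.0737, 0.067 and 0.0561). Tap2 (-0.21 ± 0.11, adjusted p = 0.237) and Erap1 (-0.21 ± 0.15, adjusted p = 0.41) were not called, and Tap2 had 26 ± 1.95 RPKM in Ifnar ko HPC and 28.8 ± 1.28 RPKM in wild type HPC (mean ± SD, n = 4 each).

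Other proteasome genes fell in the same P0 HPC comparison. Of 11 core proteasome subunits 8 fell, of 3 constitutive catalytic subunits 2 fell, of 3 PA28 genes 2 fell, and of 5 assembly genes 3 fell. With the length correlation of each library as a covariate, an alternative added after the data were seen, B2m, Psmb9 and Nlrc5 were still called, and Tap1, Tapbp, Tapbpl, Psmb8 and Psmb10 were not (adjusted p = 0.058, 0.207, 0.0758, 0.0528 and 0.0604). That correlation was 0.200 to 0.226 in Ifnar ko HPC and 0.137 to 0.210 in wild type HPC. Macrophage marker sums were 34.9 to 86.7 CPM in Ifnar ko HPC and 125 to 152 CPM in wild type HPC, T and NK cell sums were 35.7 to 59.2 CPM in Ifnar ko HPC and 69.3 to 105 CPM in wild type HPC, and erythroid sums were 19.4 to 97.9 CPM in Ifnar ko HPC and 10.1 to 11.5 CPM in wild type HPC. Cd3e and Cd8a were at 0 in HPC of both genotypes. Antigen presenting sums were 696 to 760.00 CPM in Ifnar ko HPC and 817 to 1430.00 CPM in wild type HPC, with 1 of 7 called lower, and B cell sums were 131 to 165 CPM in Ifnar ko HPC and 167 to 226 CPM in wild type HPC, with 3 of 3 tested called lower. The sum of 10 genes of hematopoietic cells was 3270.00 to 4300.00 CPM in Ifnar ko HPC and 4750.00 to 5454 CPM in wild type HPC, with 4 called higher and 3 lower. None of these sums overlapped between the genotypes. The part of these markers in the result was not tested. Of 5 tested heavy chains 5 fell, and all 10 interferon effectors fell, with a list median of -5.06. The shares of Psmb8, Psmb9 and Psmb10 were 53.4% ± 3.38, 10.4% ± 0.676 and 44.6% ± 3.04 in Ifnar ko HPC and 63% ± 1.06, 14.6% ± 0.698 and 55.2% ± 3.24 in wild type HPC, without overlap (n = 4 each, exact permutation p = 0.0286, the smallest possible, adjusted p = 0.033). Within a library, therefore, the immunosubunits were lower relative to their counterparts as well.

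The Ifnar ko change was tested against that of the other cell type. Tapbpl was the only member called, with a change that was higher in HSC than in HPC by 0.69 ± 0.16 (adjusted p = 0.0271; 0.698% of all genes were called higher). Tapbpl had 29.96, 31.6, 29.7 and 40.2 RPKM in Ifnar ko HSC and 34.2, 34.3, 32.9, 25.5 and 30.2 RPKM in wild type HSC, and 21.4, 24.7, 23.3 and 23.8 RPKM in Ifnar ko HPC and 31.9, 36.5, 32 and 34.6 RPKM in wild type HPC. The HSC groups overlapped and the HPC groups did not. The call was lost without HSC Ifnar ko library 4, HPC wild type library 2 or HPC Ifnar ko library 1 (adjusted p = 0.0563, 0.0626 and 0.0573). It was also lost without a filter, with a replicate block and with the length correlation as a covariate. The codes in the sample labels differ between the HSC and the HPC libraries, what they stand for is not stated, and any effect that goes with them cannot be told apart from cell type. The difference was 0.81 ± 0.22 for Psmb10 and -0.76 ± 0.20 for Tap1, neither called (adjusted p = 0.0605 and 0.0534).

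At P14, 4 of the 10 genes fell with deletion of Ifnar in HPC that carried Flt3 ITD, against 1.93% of the 17464 genes tested. B2m had 1208, 1258, 1191, 1338 and 1549 RPKM in Ifnar -/-, Flt3 ITD/+ HPC, against 2741, 2716, 3533 and 3534 RPKM in Ifnar +/-, Flt3 ITD/+ HPC, and fell by 1.30 ± 0.19 (adjusted p = 0.000491). Tap1 had 6.37, 8.66, 8.77, 7.86 and 6.08 RPKM in Ifnar -/-, Flt3 ITD/+ HPC, against 26.1, 26, 30.4 and 24.7 RPKM in Ifnar +/-, Flt3 ITD/+ HPC, and fell by 1.87 ± 0.18 (adjusted p = 3e-06). Nlrc5 had 0.537, 0.469, 0.346, 0.348 and 0.237 RPKM in Ifnar -/-, Flt3 ITD/+ HPC, against 4.1, 4.43, 4.32 and 2.86 RPKM in Ifnar +/-, Flt3 ITD/+ HPC, and fell by 3.38 ± 0.36 (adjusted p = 1.09e-05). The groups did not overlap in these genes, and all 3 calls held under every setting tried. Psmb9 fell by 0.67 ± 0.17 (adjusted p = 0.0313), also without overlap, and its call was lost in 7 settings, among them without Ifnar +/-, Flt3 ITD/+ library 3 or 4 (adjusted p = 0.112 and 0.0784). Psmb8 differed by -0.53 ± 0.15, Psmb10 by -0.27 ± 0.20, Tapbp by -0.50 ± 0.23, Tapbpl by -0.39 ± 0.13, Erap1 by -0.52 ± 0.30 and Tap2 by -0.64 ± 0.27, none called. Of 7 heavy chains 7 fell, all 10 interferon effectors fell with a list median of -5.35, and of 11 core proteasome subunits edgeR called 0, with 0 at an unadjusted p under 0.05. Antigen presenting marker sums were 302 to 563 CPM in Ifnar -/-, Flt3 ITD/+ HPC and 634 to 1200.00 CPM in Ifnar +/-, Flt3 ITD/+ HPC, with 3 of 7 called lower. That list includes Flt3, the gene that carries the ITD. Neutrophil sums were 12.4 to 21.3 CPM in Ifnar -/-, Flt3 ITD/+ HPC and 3.25 to 7.92 CPM in Ifnar +/-, Flt3 ITD/+ HPC, and erythroid sums were 19.1 to 49 CPM in Ifnar -/-, Flt3 ITD/+ HPC and 8.73 to 15.5 CPM in Ifnar +/-, Flt3 ITD/+ HPC. The sum of the 10 hematopoietic genes was 2832 to 4489 CPM in Ifnar -/-, Flt3 ITD/+ HPC and 4865 to 6666 CPM in Ifnar +/-, Flt3 ITD/+ HPC. None of these sums overlapped, and their part was not tested.

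With Flt3 ITD in Ifnar +/- HPC, Tap1 and Nlrc5 rose, 2 of the 10 genes, against 2.77% of all genes. Tap1 had 26.1, 26, 30.4 and 24.7 RPKM in Ifnar +/-, Flt3 ITD/+ HPC, against 9.13, 17.4, 7.85 and 11.8 RPKM in Ifnar +/-, Flt3 +/+ HPC (1.16 ± 0.19, adjusted p = 0.00156). Nlrc5 had 4.1, 4.43, 4.32 and 2.86 RPKM in Ifnar +/-, Flt3 ITD/+ HPC, against 0.84, 1.98, 0.518 and 0.956 RPKM in Ifnar +/-, Flt3 +/+ HPC (1.83 ± 0.36, adjusted p = 0.00814). Neither overlapped. Without Flt3 +/+ libraries 1, 3 and 4, which stood apart, the fold changes were 0.69 for Tap1 and 1.04 for Nlrc5 (adjusted p = 0.309 and 0.57), with a lone control library assumed to vary like the other groups. That library, number 2, held the highest Tap1 and Nlrc5 values of its group. B2m differed by 0.06 ± 0.20 and Psmb9 by -0.06 ± 0.18 (adjusted p = 0.861 and 0.849). Of 7 heavy chains 4 rose and of 10 interferon effectors 5 rose. Antigen presenting sums were 634 to 1200.00 CPM in Ifnar +/-, Flt3 ITD/+ HPC and 188 to 1207 CPM in Ifnar +/-, Flt3 +/+ HPC, with 3 of 7 called higher, and their part was not tested. Flt3 itself is among these markers. The count of genes called over all genes, 895 in this comparison, was 5783 without Flt3 +/+ library 2 and 267 to 498 without 6 of the 7 others in turn.

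In Ifnar -/- HPC, Flt3 ITD gave 0 called members by edgeR, against 0.956% of all genes in either direction. Tapbpl, Psmb8 and Nlrc5, 3 members, had an unadjusted p under 0.05, and DESeq2 called 1, Nlrc5. Nlrc5 had 0.537, 0.469, 0.346, 0.348 and 0.237 RPKM in Ifnar -/-, Flt3 ITD/+ HPC, against 1.96, 1.12, 0.437 and 0.831 RPKM in Ifnar -/-, Flt3 +/+ HPC (-1.39 ± 0.34, adjusted p = 0.0605). Tap1 had 6.37, 8.66, 8.77, 7.86 and 6.08 RPKM in Ifnar -/-, Flt3 ITD/+ HPC and 10.5, 11, 7.94 and 9.86 RPKM in Ifnar -/-, Flt3 +/+ HPC (-0.31 ± 0.17, adjusted p = 0.499). Both groups overlapped.

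With normal Flt3, B2m, Psmb8 and Psmb9 fell with deletion of Ifnar, 3 of the 10 genes, against 3.56% of all genes. B2m had 2159, 1422, 1035 and 1279.8 RPKM in Ifnar -/-, Flt3 +/+ HPC, against 2256, 2580.1, 3342 and 3055 RPKM in Ifnar +/-, Flt3 +/+ HPC (-1.16 ± 0.21, adjusted p = 0.00973). Psmb9 had 37.6, 43.3, 35.8 and 40.3 RPKM in Ifnar -/-, Flt3 +/+ HPC, against 62.3, 47, 79.9 and 67.2 RPKM in Ifnar +/-, Flt3 +/+ HPC (-0.92 ± 0.18, adjusted p = 0.0203). Psmb8 had 43.5, 49.6, 42.8 and 47.5 RPKM in Ifnar -/-, Flt3 +/+ HPC, against 80.5, 54, 79.2 and 67.3 RPKM in Ifnar +/-, Flt3 +/+ HPC (-0.82 ± 0.16, adjusted p = 0.0224). The groups did not overlap, and 7 of 11 core proteasome subunits and 2 of 3 constitutive ones fell in the same comparison. Without Ifnar +/-, Flt3 +/+ libraries 1, 3 and 4 none of the 3 genes was called, with fold changes of -0.87, -0.27 and -0.30 for B2m, Psmb8 and Psmb9 (adjusted p = 0.911, 1 and 1). Leaving out single libraries left 0 to 4 members called, and B2m was lost only without Ifnar -/-, Flt3 +/+ library 4 (adjusted p = 0.052). Nlrc5 had 1.96, 1.12, 0.437 and 0.831 RPKM in Ifnar -/-, Flt3 +/+ HPC and 0.84, 1.98, 0.518 and 0.956 RPKM in Ifnar +/-, Flt3 +/+ HPC, and Tap1 had 10.5, 11, 7.94 and 9.86 RPKM in Ifnar -/-, Flt3 +/+ HPC and 9.13, 17.4, 7.85 and 11.8 RPKM in Ifnar +/-, Flt3 +/+ HPC. Neither was called (-0.16 ± 0.35, adjusted p = 0.788, and -0.39 ± 0.18, adjusted p = 0.156), and both overlapped. T and NK cell marker sums were 92.3 to 141 CPM in Ifnar -/-, Flt3 +/+ HPC and 154 to 552 CPM in Ifnar +/-, Flt3 +/+ HPC, without overlap, and their part was not tested. Over all genes 833 were called, against 6233 without Ifnar +/-, Flt3 +/+ library 2 and 41 to 205 without any other single library.

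Whether the effect of Ifnar deletion differed with the Flt3 genotype was tested as an interaction. Nlrc5 was called, at -3.22 ± 0.50 (adjusted p = 0.0327), where 0.0115% of all genes, 2 in number, were called lower. The sign says that the Nlrc5 difference between Ifnar -/- and Ifnar +/- was more negative in Flt3 ITD/+ than in Flt3 +/+ HPC. The interaction was -2.44 (adjusted p = 0.813) without Ifnar +/-, Flt3 +/+ libraries 1, 3 and 4 and -2.26 (adjusted p = 0.587) with the length correlation as a covariate, and the call was lost in 11 of the settings tried. Without Ifnar +/-, Flt3 +/+ library 2, 5582 genes were called in either direction. Tap1 had an interaction of -1.47 ± 0.25 (adjusted p = 0.0684).

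**Figure D4:**
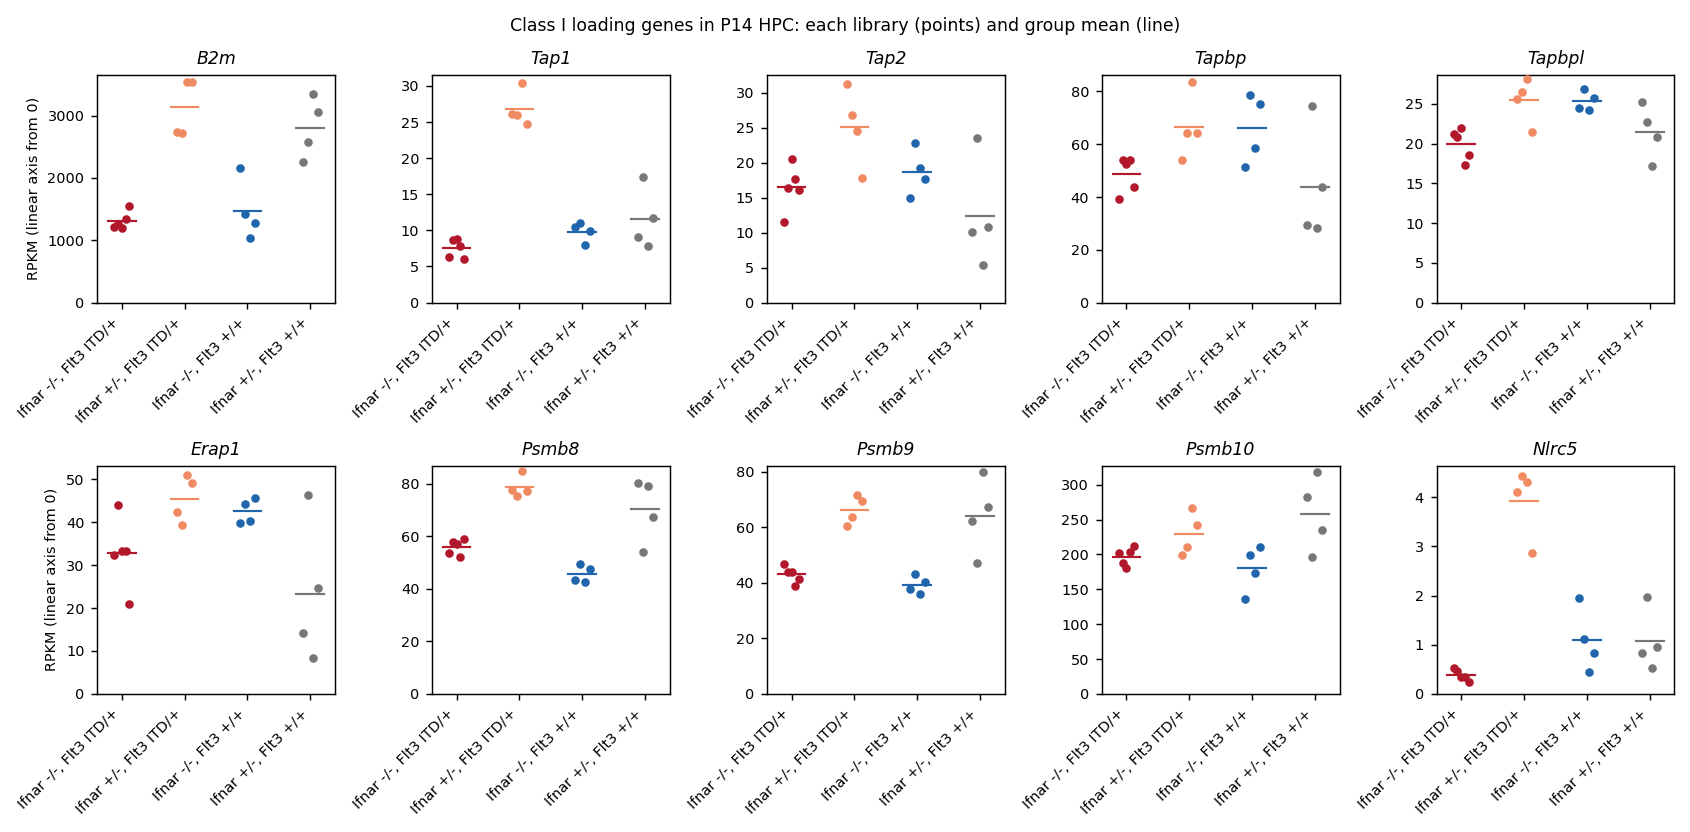
Level of each of the 10 genes in RPKM (linear axis from 0) in P14 HPC of 4 genotypes; points are libraries and lines are group means. Nlrc5 and Tap1 are highest in Ifnar +/-, Flt3 ITD/+ libraries, and B2m is lower in Ifnar -/- than in Ifnar +/- libraries of the same Flt3 genotype.

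**Figure D5:**
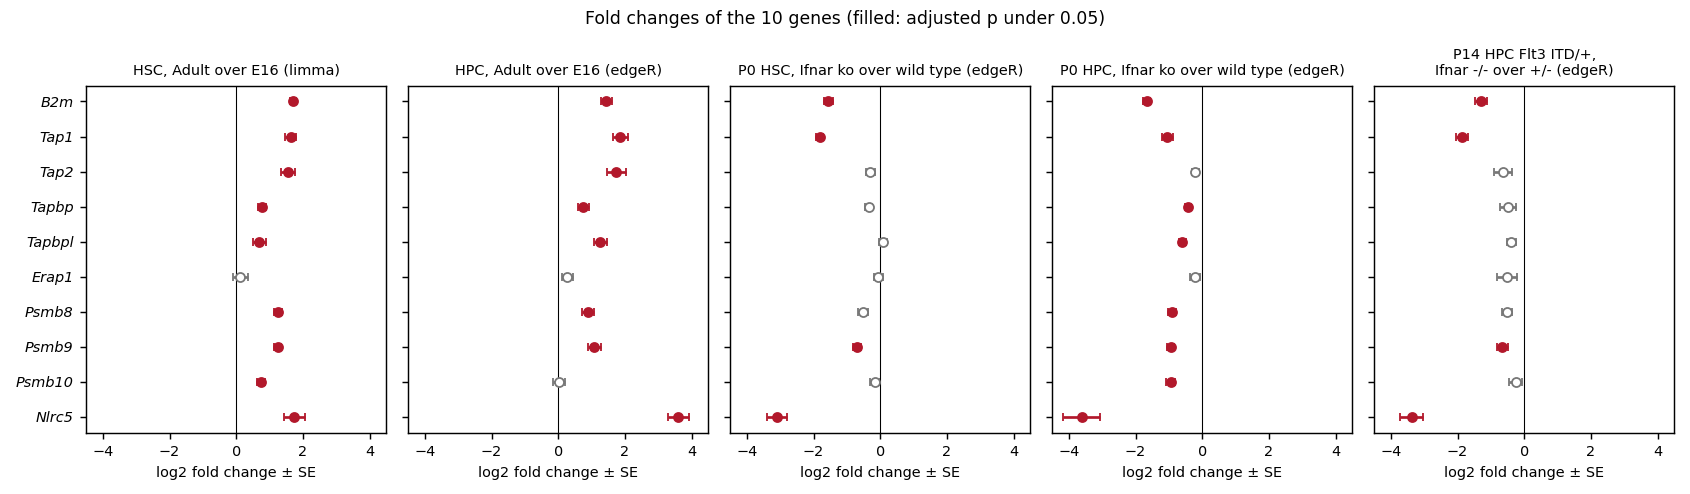
Log2 fold change with its standard error for each of the 10 genes in 5 comparisons, filled where the adjusted p was under 0.05; values right of 0 are higher in the first-named group. B2m, Tap1 and Nlrc5 lie right of 0 for adult over E16 and left of 0 for Ifnar ko over wild type in both cell types.

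The members varied together over the 26 HSC libraries of the age series to different degrees. The Pearson correlation of a member with the mean of the members was highest for Tap1 (r = 0.94), followed by Psmb8 and B2m (0.90 each), and lowest for Erap1 (0.19) and Nlrc5 (0.79). The genes outside the set whose pattern was closest to the members' mean, by the same measure, were the heavy chains H2-K1 (r = 0.937), H2-T23 (0.934) and H2-D1 (0.924), AW112010 (0.936) and Sord, the enzyme sorbitol dehydrogenase (0.922). These correlations are descriptions over libraries that share age groups and column prefixes, and each member is part of the mean it was compared with.

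Reads of some members may include those of other genes. In the GENCODE M21 annotation, B2m lies within Patl2, Tapbpl within Vamp1 and Psmb10 within Gm16156, each on the opposite strand. Tapbp shares bases with Zbtb22 on the same strand, and Psmb9 and Tap1 share 212 bases. Psmb8, Tap2, Erap1 and Nlrc5 each overlap another gene in part. Whether reads were counted by strand is not stated, so these values are uncertain to that extent.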

How the data were processed

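Libraries were RNA-seq of mouse HSC and HPC, with RNA from a Qiagen micro plus kit and a Clontech cDNA kit, per the labels. The submitters' processing notes name STAR 3.0.4 for the authors' alignment and featureCounts 1.4.5 of Subread for counting. The genome build, annotation and strand setting are not given in the sources used here. The values the authors deposited were raw counts per gene, except for HSC of the age series, which the values show to be deposited RPKM. For these, 100% of nonzero values came out as whole reads within a tolerance of 1e-05 once multiplied by an exon length, for 25622 genes, of which 16624 used a GENCODE M21 length and 8998 a length solved from the data. Recovery covered 99.9985% or more of every library total. RPKM of other libraries were computed from counts, the same lengths and column totals. In the table of ages, 2 rows named no mouse gene (up to 0.000144% of a library's reads), and 1 column of values was not used.

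R 4.3.3 was used. Tests of counts were by edgeR 4.0.16, quasi-likelihood F-test (TMM factors, default filter, robust), and RPKM with limma 3.58.1 (trend, robust) on log2(TMM-scaled RPKM + 0.5). That fit kept genes over 1 RPKM in at least the number of libraries of the smallest group. HSC against HPC also used limma, with HPC counts put on RPKM. Tests were two-sided without covariates, within 5 sets fitted together (HSC ages, HPC ages, P0 HSC, P0 HPC, P14 HPC; both cell types for their differences), and adjusted by Benjamini and Hochberg over all genes. Scripts were tested on simulated data. Alternatives were other pseudocounts, no filter, other scaling, edgeR on recovered reads, DESeq2 1.42.0, a replicate block, fits of 2 groups, and leaving out libraries. The rule named all members, up to 3 called genes of smallest adjusted p per list in HSC adult minus E16 and P0 HSC Ifnar ko, the targeted genes and the 5 nearest patterns; Isg15, Kit and marker genes were added to it, and 1 gene it named is not reported here. The members and lists were chosen with earlier results of these data known.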

Additional observations from a re-analysis of the deposited data

Results flagged for a closer look

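In 2 of the 170 pairs of a member and a group with 4 or 5 libraries, a single library lay far from the others, where chance alone would flag about 1 in 20. Tapbp in P0 wild type HPC was lowest in library 2, at 77.6 RPKM, with the next library at 94.0 RPKM. Erap1 in HPC at P7 was lowest in library 4, at 35.3 RPKM, with the next at 48.4 RPKM.

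The effect of a contrast differed between groups for 3 members by a test of the difference. For Psmb10, adult minus E16 was larger in HSC than in HPC by 0.70 (log2, limma adjusted p = 0.0468). For Tapbpl at P0, Ifnar ko minus wild type was higher in HSC than in HPC by 0.69 (edgeR adjusted p = 0.0271). For Nlrc5 at P14, the difference between Ifnar -/- and Ifnar +/- was lower in Flt3 ITD/+ than in Flt3 +/+ HPC, with a log2 interaction of -3.22 (edgeR adjusted p = 0.0327). Each of these calls was lost in some of the settings tried, 14 for Psmb10, 6 for Tapbpl and 11 for Nlrc5.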

How the results depend on the processing

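Of 270 values (10 members in 27 comparisons), 89 were called; 55 of these calls held under every setting tried and 34 were lost under at least 1. Among values called in the reported fit or in the alternative, 1 changed sign, Psmb9 in adult minus P14 HPC. It was 0.46 (adjusted p = 0.0104) with the length correlation as a covariate and -0.06 without it. Sign changes of values called in neither were not counted. Settings with the length covariate and those that leave out several libraries were chosen after seeing the data, and the cause of the shifts was not tested. Counts of called members moved as follows. In P0 minus E18 HSC (1 lower) the count was 0 with a pseudocount of 0.1, without a filter, with edgeR on recovered reads, with a replicate block, with only the 2 groups fitted and with the length covariate. In adult minus P14 HSC (4) it was 1 without a filter and 1 with the replicate block. In P0 minus E16 HPC (3) it was 1 with the block, 1 with 2 groups fitted and 5 with the length covariate. In P14 minus P7 HPC (3) it was 1 with 2 groups fitted and 6 with the length covariate. In adult minus P14 HPC (3) it was 1 without HPC P14 libraries 1 and 2. For HSC lower than HPC, the count at E16 (2) was 0 without a filter, 1 without TMM scaling and 1 with the block, and at P14 (2) it was 1 without a filter, 1 without TMM scaling, which shifted the median of all genes by 0.166 there, and 1 with 2 groups fitted. For the difference of adult minus E16 between cell types (1) it was 0 with a pseudocount of 0.1, without a filter and with edgeR on recovered reads.

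In P0 HPC Ifnar ko (8 lower) the count was 3 with the length covariate, and for the P0 difference (1) it was 2 with DESeq2 and 0 with the length covariate. For Flt3 ITD in Ifnar +/- HPC (2) it was 4 with DESeq2, 4 with the block, 1 with the length covariate and 0 without Flt3 +/+ libraries 1, 3 and 4. For Ifnar -/- in Flt3 +/+ HPC (3) it was 0 with 2 groups fitted, with the length covariate and without those libraries. For Ifnar -/- in Flt3 ITD/+ HPC (4) it was 7 with 2 groups fitted. For the interaction (1) it was 4 with DESeq2, 2 without a filter, 0 with the length covariate and 0 without those libraries.

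Leaving out single libraries gave 0 to 1 in P0 minus E18 HSC, 1 to 3 in adult minus P14 HSC, 1 to 2 in P0 minus E16 HPC, 1 to 5 in P14 minus P7 HPC and 1 to 3 in adult minus P14 HPC. It gave 0 to 2 for lower in HSC at E16, 2 to 4 for higher in HSC at P7, 1 to 3 for lower in HSC at P14, and 0 to 1 for the difference of adult minus E16. It gave 0 to 2 for the P0 difference, 2 to 5 for Flt3 ITD in Ifnar +/-, 0 to 4 for Ifnar -/- in Flt3 +/+ and 0 to 5 for the interaction. Counts over all genes moved by more than 1.5 times as follows, with the count of the reported fit in brackets. DESeq2 called 879 genes (485) in P0 minus E16 HPC, 415 (218) in P7 minus P0 HPC, 338 (186) in P0 HSC Ifnar ko, 751 (301) in the P0 difference, 2613 (895) and 424 (167) for Flt3 ITD in Ifnar +/- and Ifnar -/-, 2999 (833) and 1392 (710) for Ifnar -/- in Flt3 +/+ and Flt3 ITD/+, and 2396 (2) in the interaction. The length covariate gave 477 (728) in E18 minus E16 HSC, 408 (637) in P0 minus E18 HSC, 1086 (485), 398 (218), 2665 (1458) and 1981 (4275) in the successive HPC intervals, 251 (1400) in P0 HPC, 146 (301) in the P0 difference, 225 (895) for Flt3 ITD in Ifnar +/-, 28 (833) for Ifnar -/- in Flt3 +/+ and 0 (2) in the interaction. With only 2 groups fitted, the counts were 0 (7), 140 (637), 416 (794) and 1351 (2142) in E16 minus E14, P0 minus E18, P7 minus P0 and adult minus E18 HSC, 170 (485), 640 (218) and 2657 (4275) in P0 minus E16, P7 minus P0 and adult minus P14 HPC, and 164 (895), 307 (167), 44 (833) and 1398 (710) in the P14 comparisons in the order above. The block gave 4 (7) in E16 minus E14 HSC, 303 (485) and 145 (218) in P0 minus E16 and P7 minus P0 HPC, 893 (1400) in P0 HPC, 1363 (895) for Flt3 ITD in Ifnar +/-, 445 (710) for Ifnar -/- in Flt3 ITD/+ and 1 (2) in the interaction. Without a filter the counts were 14 (7), 471 (728) and 143 (229) in E16 minus E14, E18 minus E16 and P14 minus P7 HSC and 4 (2) in the interaction, and without TMM scaling 13 (7) in E16 minus E14 HSC. Without HPC P14 libraries 1 and 2 they were 2777 (1458) and 2421 (4275) in P14 minus P7 and adult minus P14 HPC, and without Flt3 +/+ libraries 1, 3 and 4 they were 133 (895), 14 (833) and 0 (2) for Flt3 ITD in Ifnar +/-, Ifnar -/- in Flt3 +/+ and the interaction. Leaving out single libraries moved the count by more than 1.5 times at least once, with a range of 417 to 634 (728), 361 to 659 (637), 2 to 8 (7), 460 to 760 (794) and 119 to 197 (229) in E18 minus E16, P0 minus E18, E16 minus E14, P7 minus P0 and P14 minus P7 HSC. It was 2535 to 3687 (3979), 232 to 527 (485), 112 to 179 (218) and 542 to 1612 (1458) in adult minus E16, P0 minus E16, P7 minus P0 and P14 minus P7 HPC, and 2179 to 2927 (3304) for HSC minus HPC at E16. It was 660 to 2343 (1400) in P0 HPC Ifnar ko, lowest without wild type library 1 and highest without library 4, 194 to 620 (301) in the P0 difference, 327 to 695 (710) for Ifnar -/- in Flt3 ITD/+, and 267 to 5783 (895), 41 to 6233 (833) and 0 to 5582 (2) for Flt3 ITD in Ifnar +/-, Ifnar -/- in Flt3 +/+ and the interaction, each highest without Ifnar +/-, Flt3 +/+ library 2. Whether equal replicate numbers pair libraries was checked by correlation, which cannot exclude pairing, with only 4 pairs in each P0 set. The correlation of same-numbered libraries was over 0.1 in 3 of 73 pairs in HSC ages, 5 of 36 in HPC ages, 0 of 4 in P0 HSC, 1 of 4 in P0 HPC and 8 of 24 in P14 HPC. Median correlations of same-numbered and other pairs were 0.056 and -0.012 in P0 HSC, 0.011 and -0.0039 in P0 HPC and 0.023 and -0.012 in P14 HPC. They were -0.0097 and 0.0026 in HSC ages and -0.016 and 0.015 in HPC ages. A replicate block lost 11 member calls and gained 4. Depth limits Nlrc5 most in P0 Ifnar ko HPC, with 0 to 19 reads.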

Other observations

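P0 HSC were sequenced in both series, with unlike values of Psmb8 and B2m. The Psmb8 share of Psmb8 plus Psmb5 was 28.8% ± 1.01 in wild type P0 HSC of the genotype series (SD, n = 5) and 56.6% ± 2.84 in P0 HSC of the age series (SD, n = 4), while in P0 HPC it was 63% ± 1.06 in wild type of the genotype series and 60.6% ± 1.41 in the age series (SD, n = 4 each). Psmb8 itself had 35.9 to 47.3 RPKM in wild type P0 HSC of the genotype series and 72.2 to 104 RPKM in P0 HSC of the age series. B2m had 2356 to 2922 RPKM in wild type P0 HSC of the genotype series and 4657 to 6769 RPKM in P0 HSC of the age series. The shares of the other immunosubunits lay closer: that of Psmb9 was 13.7% ± 0.527 in the genotype series and 15.4% ± 0.969 in the age series, and that of Psmb10 was 58.1% ± 2.59 and 56.2% ± 2.33 in the same order. The series were separate sets with different depths, and no test was made between them. The Psmb8 share in P14 HPC was 35.8% ± 3.11 in Ifnar -/-, Flt3 ITD/+ (SD, n = 5), 43% ± 1.97 in Ifnar +/-, Flt3 ITD/+, 33.9% ± 2.88 in Ifnar -/-, Flt3 +/+ and 38.2% ± 2.65 in Ifnar +/-, Flt3 +/+ HPC (SD, n = 4 each), and 65.6% ± 2.94 in P14 HPC of the age series (SD, n = 5).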
